A study of Mus musculus with 12 samples.

Results

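The Hedgehog and Notch genes described here are Ptch1, Smo, Hhip, Gli1, Gli2 and Gli3 on the Hedgehog side and Jag1, Notch2, Hes1 and Hey1 on the Notch side. They were chosen by name as receptors, signal transducers and targets of 2 pathways that act on fetal Leydig and progenitor cells, and an array probe was taken as theirs where its accession mapped to the gene. These 10 genes, of 18749 named genes on the array, had 17 probes, and 9 of the 10 were bright enough to be tested. RNA came from gonadal somatic cells of 12 single mouse embryos at embryonic day 11.5, 3 per group in 4 groups. Control females and control males were heterozygous for a Jmjd1a mutant allele, and mutant females and mutant males were homozygous for it. Jmjd1a is now called Kdm3a and encodes a histone H3 lysine demethylase. All embryos carried an Nr5a1/CD271 transgene, in which the Nr5a1 sequences drive the surface protein CD271 in gonadal somatic cells. Magnetic beads against CD271 took about 40000 cells from the roughly 200000 cells dissociated from a pair of gonads with their mesonephroi, the adjoining embryonic kidneys, so the controls were neither wild type nor free of the transgene. The labels name no litters, and the p-values measure the spread between these single embryos.

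In Hedgehog signalling a secreted ligand binds Ptch1, which then stops holding back Smo, and Smo passes the signal through the primary cilium to the Gli transcription factors. Ptch1, Hhip and Gli1 are themselves switched on by the pathway, so their RNA is commonly read as its output. In Notch signalling a ligand such as Jag1 on the surface of a neighbouring cell triggers cleavage of a Notch receptor, whose freed inner part joins the DNA-binding protein Rbpj and switches on genes such as Hes1 and Hey1. In the fetal testis, Dhh from Sertoli cells signals to Ptch1-bearing interstitial cells and promotes fetal Leydig cells, while Notch signalling holds interstitial progenitors back from that fate.

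Levels below are on a log2 scale, with the 75th percentile of each array set to 0, and differences are log2 differences with the standard error (SE) of the limma fit over all 12 arrays. A level says how bright a probe is and cannot rank the RNA amounts of different genes. Genes said to lead a list are those with the brightest probes. Kdm3a, the targeted gene, lay between 2.73 and 3.06 on the 6 control arrays and between 0.48 and 1.08 on the 6 mutant arrays. On another, dimmer probe for Kdm3a the means were -2.57 in control females and -2.73 in control males, each array above background, while 0 of the 6 mutant arrays were well above it. No source used here says which exons the mutant allele lacks, so where these probes lie relative to it is not known. Between 58.0% and 65.2% of the spots of an array were well above background, as the scanner software marks them, and the number of arrays limits the precision. The arrays lay on 3 slides. All 3 control males shared slide 1 with mutant male 1. Slide 2 carried control females 1 and 2 beside mutant males 2 and 3, and slide 3 carried all 3 mutant females beside control female 3. Brightness before scaling, the 75th percentile of the processed signal, was 139.8, 166.1 and 215.5 in the control males and 291.7, 282.2 and 260.4 in the mutant females. The gonadal markers Nr5a1, Wt1, Gata4 and Lhx9 were well above background on all 12 arrays.

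No Hedgehog or Notch gene passed the threshold, an adjusted p under 0.05, in any of 6 comparisons. In mutant against control males 0 of 9 were called by limma, beside 0.48% of the 19178 features tested, and 1 of 9 had an unadjusted p under 0.05, beside 11.9% of all features. In females the counts were 0 called, beside 0.355%, and 1 at an unadjusted p under 0.05, beside 10.4%. For the mutant effect averaged over the sexes they were 0, beside 1.12%, and 3, beside 23.6%. The share of genes at an unadjusted p under 0.05 was thus near that of all features in the males and the females. Differences leaned towards higher values in mutants, with 7 of 9 higher in males, 8 of 9 in females and 6 of 9 on average. Their medians were 0.29, 0.25 and 0.27, beside medians of -0.04, -0.05 and -0.05 over all features tested. The lean changed with the processing. The median in males was -0.02 under normexp background correction, with 4 genes higher and 5 lower, but 0.39 with the slide as a block, with 8 of 9 higher. In females it was 0.14 under normexp and 0.00 with the slide as a block, with 4 genes higher and 5 lower. Within slide 1, mutant male 1 was higher than the mean of the 3 control males in 9 of the 10 genes, Hhip included. Within slide 3, the mean of the 3 mutant females was higher than control female 3 in 4 of the 10 and lower in 6.

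**Figure D1:**
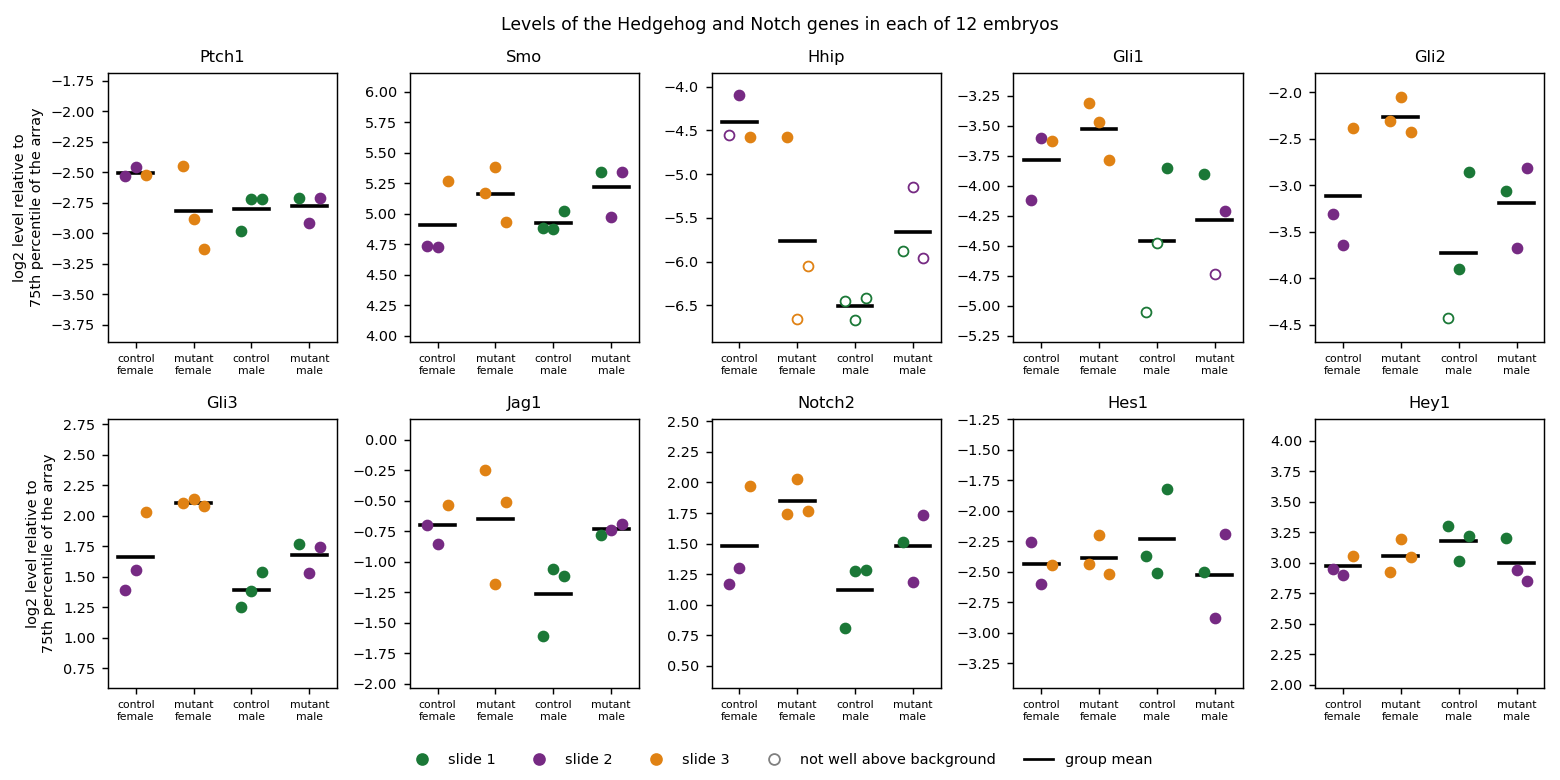
Levels of the 10 Hedgehog and Notch genes, 1 panel per gene with its own axis, on a log2 scale with the 75th percentile of the array at 0. Each point is 1 embryo, colour gives the slide, open circles were not well above background and bars are means of 3 embryos. Points of most groups overlap, and in Gli3, Notch2 and Smo control female 3, on slide 3, lies apart from the other control females and beside or among the mutant females of its slide.

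Ptch1, the Hedgehog receptor and a target of the pathway, varied least between arrays among the Hedgehog genes that are targets, from -3.13 to -2.45. It stood at -2.54, -2.46 and -2.52 in control females and at -2.45, -2.89 and -3.13 in mutant females. In control males it stood at -2.98, -2.72 and -2.72, and in mutant males at -2.71, -2.92 and -2.71. The control females were tightly grouped and all higher than the control males, the mutant females spread across both, and the male groups overlapped. Mutant and control males differed by 0.03 ± 0.16 (SE; 95% interval -0.34 to 0.39; limma adjusted p = 0.94). Mutant females were lower than control females by a log2 difference of -0.32 ± 0.16 (95% interval -0.68 to 0.04; limma adjusted p = 0.49).

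Smo, the transmembrane transducer that Ptch1 inhibits, stood at 4.74, 4.72 and 5.27 in control females and at 5.17, 5.38 and 4.93 in mutant females. Control males stood at 4.88, 4.88 and 5.02 and mutant males at 5.34, 4.98 and 5.34. The groups overlapped in each sex, in the females through control female 3 and in the males through mutant male 2. The mutant difference was 0.29 ± 0.18 in males (limma adjusted p = 0.46) and 0.25 ± 0.18 in females (limma adjusted p = 0.52). Against control female 3 alone, which shared their slide, the mutant females differed by -0.11. A second Smo probe differed by 0.24 in males and 0.11 in females.

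Hhip, a membrane protein that binds and sequesters Hedgehog ligands and a target of the pathway, was too dim to test. It was well above background on 3 arrays: control females 2 and 3, at -4.10 and -4.57, and mutant female 1, at -4.58. Control female 1 read -4.55, mutant females 2 and 3 read -6.65 and -6.05, and none of these was well above background. All 6 male arrays were below that mark, between -6.67 and -5.15. No fitted difference is given for it, and the differences of group means given further below only describe dim signals. The second Hhip probe was well above background on 0 arrays.

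Gli1, the Gli factor that acts as an activator and is itself a target, read lower in males than in females. It stood at -4.12, -3.60 and -3.63 in control females and at -3.31, -3.47 and -3.79 in mutant females. The control males read -5.05, -4.48 and -3.85 and the mutant males -3.90, -4.73 and -4.21, and Gli1 was not well above background in control males 1 and 2 and mutant male 2. All mutant males were lower than all mutant females, while the control groups overlapped through control male 3. Gli1 was tested because it was well above background throughout the female groups, while 1 of 3 control males and 2 of 3 mutant males were, so its sex difference is given as a description. The fitted difference of males from females was -0.68 in controls and -0.76 in mutants. Adding array brightness to the fit brought these to 0.00 and 0.05, and under normexp to 0.16 and 0.15, so the sign of this difference was not settled. Mutant females differed from control females by 0.26 ± 0.30 (limma adjusted p = 0.67), and under normexp by -0.10.

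Gli2, the main activator among the Gli factors, had the largest mutant difference of the 9 tested genes in each sex, and also the widest spread. It stood at -3.31, -3.65 and -2.39 in control females and at -2.31, -2.05 and -2.43 in mutant females. Among control males the levels were -4.43, -3.90 and -2.86 and among mutant males -3.06, -3.68 and -2.82. Control female 3 lay among the mutant females, control male 3 lay among the mutant males, and control male 1 was not well above background. The difference was 0.85 ± 0.41 in females, 1.80-fold with a 95% interval of 0.97 to 3.37 (limma adjusted p = 0.48). In males it was 0.55 ± 0.41, 1.46-fold with an interval of 0.78 to 2.73 (limma adjusted p = 0.51), and -0.02 under normexp. Without control male 1 the male difference was 0.20, and without control male 3 it was 0.98. Against control female 3 alone the mutant females differed by 0.12, and a second, dimmer Gli2 probe differed by 0.12 in females and 0.15 in males.

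Promoters of the Hedgehog and Notch genes were searched for short sequence cores, and a stretch of the Gli2 promoter is shown because it held the only match. RefSeq promoter sequences of GRCm38.p6 were matched for 7 of the 10 genes: Gli2, Gli3, Ptch1, Smo, Hhip, Jag1 and Notch2. The 250 bases before the start site were searched on both strands for the GLI core ACCACCC, which reads GGGTGGT on the opposite strand, and for the Rbpj core GTGGGAA, which reads TTCCCAC there; the cores share no match. The GLI core was found in 1 of the 7, Gli2, and in 3.92% of all 32851 promoters of the same length. The Rbpj core was found in 0 of the 7 and in 5.42% of all promoters. Gli1, Hes1 and Hey1 had no entry among these promoters, so the Notch targets Hes1 and Hey1 were not searched. The stretch of the Gli2 promoter at chr1:119053788-119053854, minus strand, has the match in capitals, 205 bases before the start site. A match of these letters is a description of the sequence and not a binding site.
Gli2: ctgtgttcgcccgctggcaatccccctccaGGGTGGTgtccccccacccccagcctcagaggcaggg

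Gli3, which in the absence of ligand is processed into the main repressor of Hedgehog targets, had the smallest unadjusted p of the 9 genes in females and averaged over the sexes. It stood at 1.39, 1.56 and 2.03 in control females and at 2.10, 2.13 and 2.08 in mutant females. In control males it stood at 1.25, 1.38 and 1.54 and in mutant males at 1.77, 1.53 and 1.74. The mutant females were all higher than the control females, with control female 3 just under them, and the male groups overlapped only through mutant male 2 and control male 3. Of all features, 12.8% had female groups that did not overlap, and Gli3 was the only 1 of the 9 tested genes among them. The difference was 0.45 ± 0.16 in females, 1.36-fold with a 95% interval of 1.07 to 1.74 (limma adjusted p = 0.43). In males it was 0.29 ± 0.16 (limma adjusted p = 0.44), and averaged over the sexes it was 0.37 ± 0.11 (limma adjusted p = 0.15). The second Gli3 probe differed by 0.43 in females, where 1 of 3 control and 3 of 3 mutant arrays were well above background, and 0 of the 6 male arrays were. Against control female 3 alone the mutant females differed by 0.08 in the representative probe.

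The averaged effect turned on 1 array. Without control female 3, limma called 4 of the 9 tested members higher in mutants: Gli3 by 0.46 ± 0.08 (adjusted p = 0.020), Notch2 by 0.48 ± 0.13 (adjusted p = 0.034), Smo by 0.36 ± 0.11 (adjusted p = 0.039) and Gli2 by 0.88 ± 0.27 (adjusted p = 0.045). The same step raised the count over all features from 214 of 19178 to 4644 of 19326, so that 24% of all features were called and 11.7% of all features were called higher in mutants. Control female 3 was the only control on the slide of the mutant females, and the part of the slide in these calls was not tested. In females alone, leaving it out gave differences of 0.63 for Gli3, 1.21 for Gli2, 0.61 for Notch2 and 0.43 for Smo, with limma adjusted p between 0.059 and 0.10.

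Jag1, a membrane-bound Notch ligand, was the only one of the 9 tested genes whose male groups did not overlap, which 20.3% of all features did. It stood at -1.61, -1.06 and -1.12 in control males and at -0.78, -0.74 and -0.69 in mutant males. In control females it stood at -0.70, -0.86 and -0.53 and in mutant females at -0.25, -1.18 and -0.51. The control males were the low group, below all the mutant males and all the control females, and the female groups overlapped. Mutant males differed from control males by 0.53 ± 0.22, 1.44-fold with a 95% interval of 1.02 to 2.03 (limma adjusted p = 0.41). Mutant male 1, on the slide of the control males, was 0.48 higher than their mean. Control males differed from control females by -0.57 ± 0.22 (limma adjusted p = 0.46), and mutant females from control females by 0.05 ± 0.22. The mutant effects of the sexes differed by 0.48 ± 0.32, with a 95% interval of -0.22 to 1.18, and no feature was called in that comparison (limma, 0 of 19178, with 3.74% at an unadjusted p under 0.05). A second Jag1 probe, well above background on 8 arrays but on 1 of 3 in control males, differed by -0.04 in males and by -0.31 in females, and its dimness limits the male comparison. By that probe males read higher than females, by 0.52 in controls and 0.78 in mutants, so the probes had opposite signs between the control sexes.

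Notch2, a Notch receptor, was measured by 3 probes, all well above background on 12 arrays. Its representative probe stood at 1.17, 1.30 and 1.97 in control females and at 1.74, 2.03 and 1.77 in mutant females. Levels of the control males were 0.81, 1.27 and 1.28 and those of the mutant males 1.51, 1.19 and 1.73. The groups of each sex overlapped, in the females through control female 3 and in the males through mutant male 2. The mutant difference was 0.36 ± 0.23 in males and 0.37 ± 0.23 in females (limma adjusted p = 0.47 and 0.50), and -0.13 against control female 3 alone. The other probes gave 0.40 and 0.44 in males but 0.39 and -0.27 in females, so the probes disagreed in females.

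Hes1, a transcriptional repressor and a target of Notch, stood at -2.25, -2.60 and -2.45 in control females and at -2.44, -2.20 and -2.52 in mutant females. The control males had levels of -2.37, -2.51 and -1.82 and the mutant males levels of -2.51, -2.88 and -2.20. All groups overlapped, with control male 3 highest and mutant male 2 lowest. The mutant difference was -0.29 ± 0.21 in males (95% interval -0.76 to 0.17; limma adjusted p = 0.50) and 0.05 ± 0.21 in females (limma adjusted p = 0.92).

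Hey1, a repressor of the same family and the steadiest of the 10 genes, stood between 2.85 and 3.30 on all 12 arrays. The control females stood at 2.95, 2.90 and 3.06 and the mutant females at 2.92, 3.20 and 3.05. The control males stood at 3.30, 3.02 and 3.22 and the mutant males at 3.21, 2.94 and 2.85, and all groups overlapped. The mutant difference was -0.18 ± 0.13 in males (95% interval -0.47 to 0.11) and 0.09 ± 0.13 in females (95% interval -0.20 to 0.37), with limma adjusted p of 0.50 and 0.74. These intervals reach at most a fold of 1.30 upwards and 0.72 downwards, the narrowest of the members.

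**Figure D2:**
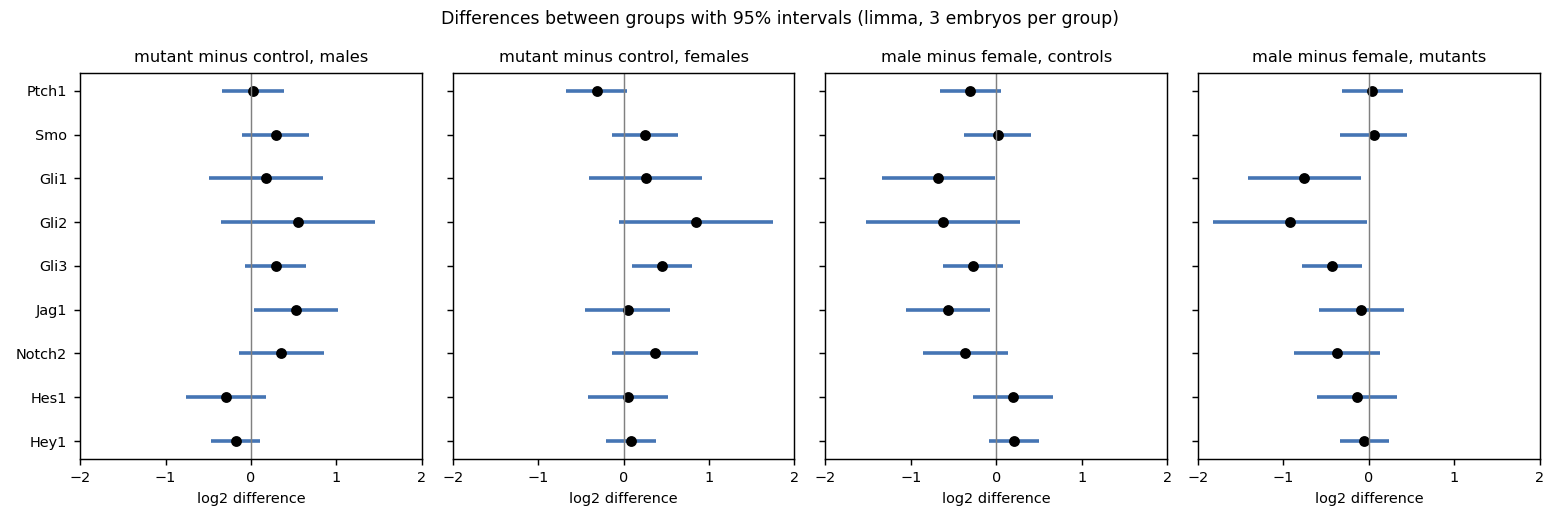
Log2 differences of the 9 tested Hedgehog and Notch genes in 4 comparisons of 3 embryos per group, with 95% intervals from limma. Gli2 has the widest intervals and Hey1 the narrowest. Intervals that leave out 0, such as that of Jag1 in males, are unadjusted, and no difference passed after adjustment.

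Between the sexes, the control groups of 2 of the 9 genes did not overlap, Jag1 and Ptch1, beside 15.9% of all features. In the mutants Gli2, Gli3 and Notch2 did not, beside 22.8%, and all 3 were lower in males, beside 8.81% of all features. Gli1 did not overlap there either, but it was tested only through its brighter female groups and is not counted. These directions turned under other settings. With the slide as a block Gli2, Gli3 and Notch2 differed by 0.11, 0.08 and 0.35 between mutant males and females, and with brightness as a covariate Gli2 and Notch2 differed by 0.09 and 0.14. The second Gli2 probe differed by 0.42 in the mutants, and of the other Notch2 probes 1 differed by 0.51 and 1 by -0.37. Called genes were 0 of 9 in controls, beside 0.183% of all features, and 0 of 9 in mutants, beside 0.141%. At an unadjusted p under 0.05 there were 2 in controls and 3 in mutants, Gli1 among each, beside 10.8% and 11.5%. In controls 6 of 9 read lower in males, with a median of -0.30 beside 0.04 over all features, and in mutants 7 of 9 did, with a median of -0.14. Over the 7 genes well above background on all arrays, which leave out Gli1 and Gli2, 4 read lower in males in controls (median -0.27) and 5 in mutants (median -0.09). The control males included the dimmest 2 arrays. With brightness as a covariate the median of the 9 was 0.07 in controls and 0.12 in mutants, with 7 of 9 higher in males in each, and under normexp it was 0.07 and -0.03. No slide held both sexes of a genotype, so the sex comparisons have no within-slide value.

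**Figure D3:**
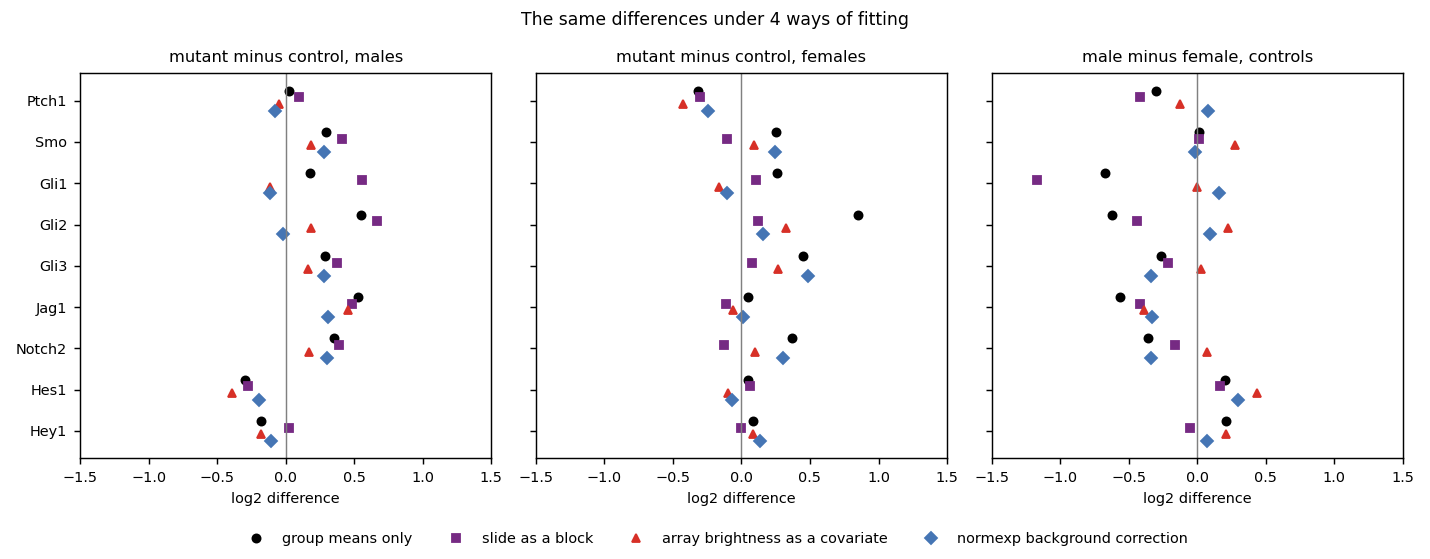
The differences of the 9 tested genes under 4 ways of fitting: group means only, the slide as a block, array brightness as a covariate, and normexp background correction. Among the females the slide block moves Gli2, Gli3, Notch2 and Smo towards or past 0, and in the control sex comparison brightness or normexp moves Gli1 and Gli2 to 0 or above, while the representative Jag1 probe stays below 0 in each; the other Jag1 probe, not drawn, differed by 0.52 there.

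Of the ligands of the pathways, Dhh was well above background on all 12 arrays, and Shh and Ihh on 0. Dhh stood at -1.29, -0.19 and -1.14 in control males and at -1.65, -1.50 and -1.67 in mutant males. In control females it stood at -2.45, -2.23 and -1.98 and in mutant females at -1.68, -1.35 and -2.02. The control males were the high group, above every other array, and control male 2 was the highest of them. Of all features, 20.3% had male groups that did not overlap, and 15.9% had control groups of the 2 sexes that did not. How many set the control males apart from every other array was not counted. Control males exceeded control females by 1.35 ± 0.27, or 2.55-fold (limma adjusted p = 0.10), and mutant males were lower than control males, by a log2 difference of -0.74 ± 0.27 (limma adjusted p = 0.36). Neither passed the threshold. Without control male 2 the male difference was -0.39, and over all alternatives it ran from -0.94 to -0.39. Over the alternatives the sex difference ran from 0.84 to 1.56, with adjusted p between 0.095 and 0.74. Mutant males and mutant females differed by 0.08 ± 0.27. The mutant effects on Dhh differed between the sexes by -1.27 ± 0.38, which limma did not call (adjusted p = 1.00).

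Of the Notch ligands, Dll3 and Dlk1 were well above background on all 12 arrays, Jag2 on 7, Dll1 on 4 and Dll4 on 0. Dll3, a ligand that acts mainly as an inhibitor of Notch within the cell, stood at -1.38, -1.39 and -1.33 in control females and at -1.63, -1.81 and -1.90 in mutant females. In control males it stood at -1.42, -1.30 and -1.55 and in mutant males at -1.72, -1.63 and -2.01. All 6 mutant arrays were lower than all 6 control arrays. Dll3 also had 1 of the 2 smallest p-values of its list in each sex, and how many of all features separate this way was not counted. In either direction, 20.3% of all features had groups that did not overlap in males and 12.8% in females. The differences were -0.42 ± 0.13 in females and -0.37 ± 0.13 in males (limma adjusted p = 0.36 and 0.34), and -0.39 ± 0.09 averaged over the sexes (limma adjusted p = 0.074), which missed the threshold. Dlk1, a membrane protein related to the Notch ligands and a marker of progenitors, differed by 0.23 ± 0.26 in males and 0.37 ± 0.26 in females.

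**Figure D4:**
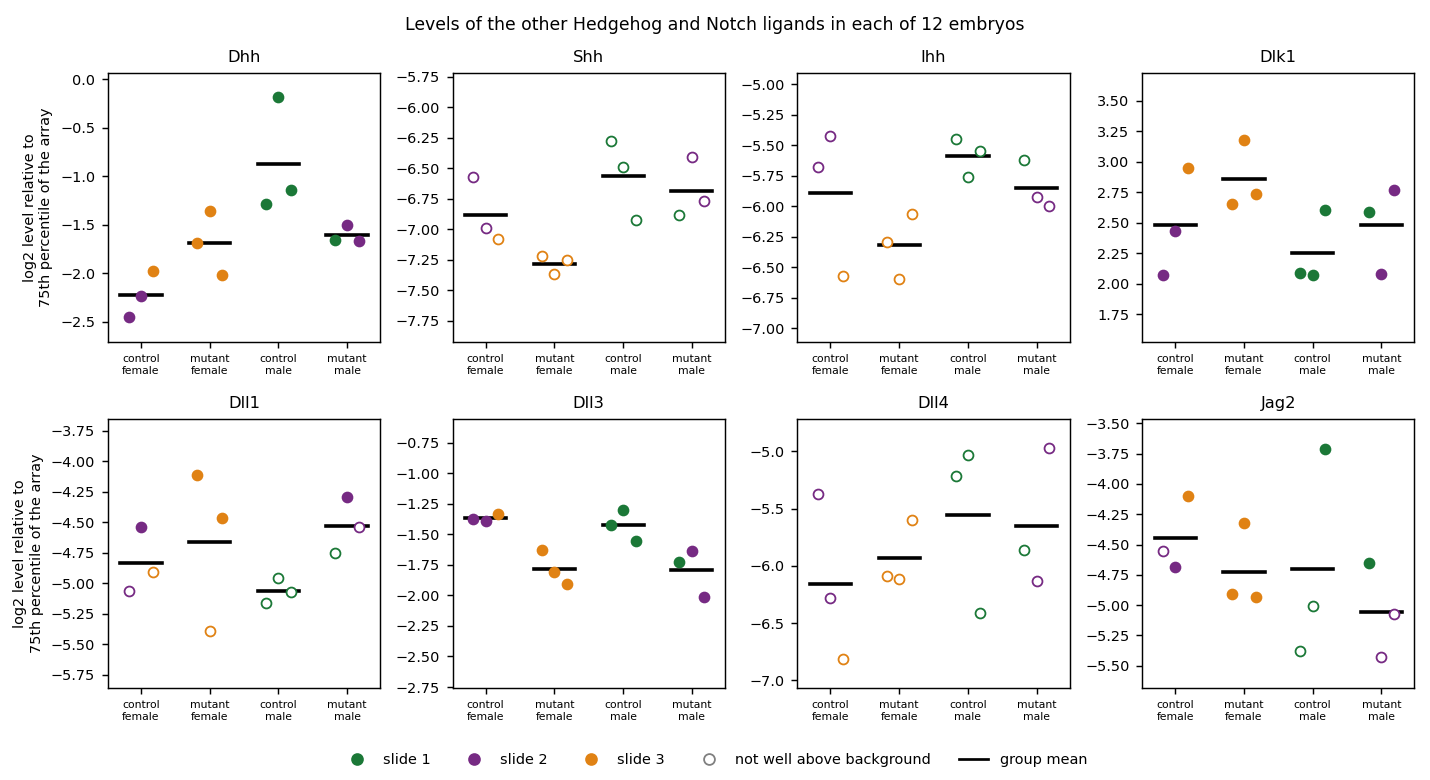
Levels of the other Hedgehog and Notch ligands and of Dlk1 in each of 12 embryos, on a log2 scale with the 75th percentile of the array at 0 and 1 axis per gene. Control males are highest in Dhh, with means of -0.87 in control males and -1.61 in mutant males, a separation that was not counted over all features. In Dll3 every mutant array lies under every control array, a separation that was not counted over all features. Shh, Ihh and Dll4 are open circles throughout, not well above background.

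Other genes of the Hedgehog pathway, 19 ligands, co-receptors, cilium components and regulators, were all on the array, and 17 were tested. Limma called 0 of the 17 in each of the 6 comparisons, and at an unadjusted p under 0.05 there were 1 in males, 0 in females and 2 between the control sexes, beside 11.9%, 10.4% and 10.8% of all features. In males 15 of 17 were higher in mutants (median 0.19) and in females 11 of 17 (median 0.13). Scube2 among them was bright enough to be tested only through the mutant females, where it can read high. Beside Dhh, the smallest p-values belonged to Ift88, a cilium transport protein (-0.26 ± 0.15 in males), to Kif7, a cilium kinesin that regulates Gli proteins (0.58 ± 0.27 in females, and -0.60 for another probe), and to Gpr161, a cilium receptor that opposes the pathway (-0.52 ± 0.24 in females). In controls, 14 of 17 were lower in males (median -0.25), among them Cdon, a Hedgehog co-receptor, at -0.50 ± 0.20. With brightness as a covariate that median was 0.10, with 11 of 17 higher. Scube2 was well above background in 0 of 3 control males and Gpr161 in 1 of 3. That can tilt the control sex count towards lower values in males, so it is given as a description.

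Other genes of the Notch pathway numbered 31, of which 28 were on the array and 25 were tested. Limma called 0 of the 25 in each of the 6 comparisons, and at an unadjusted p under 0.05 there were 7 in males, Notch1 included, 2 in females and 4 between the control sexes, beside the same shares of all features. In males 19 of 25 were higher in mutants (median 0.35, and 0.03 under normexp) and in females 17 of 25 (median 0.17, and -0.09 with the slide as a block). Notch1, Ncstn, Hey2, Rfng and Jag2 were bright enough to be tested only through mutant groups. That can tilt these counts and medians towards higher values in mutants, so they are given as a description. Of these genes, Jag2 read lower in mutants of each sex. Notch1, a receptor that was not well above background in control males 1 and 3 and control female 1, stood at -5.95, -3.90 and -4.83 in control males and at -4.13, -3.21 and -3.32 in mutant males, which overlapped. Its fitted difference of 1.34, against a group with 1 of 3 arrays above background, ran from 0.06 to 1.84 over the alternatives. Maml2, a coactivator of the Notch complex, was 0.46 ± 0.14 higher in mutant females (limma adjusted p = 0.36). Its female groups did not overlap, beside 12.8% of all features. In controls, 21 of 25 were lower in males (median -0.25, and 0.06 with brightness as a covariate). Rfng was well above background in 0 of 3 control males, and Notch1, Ncstn, Hey2 and Jag2 in 1 of 3 each. That can tilt this count and median towards lower values in control males, so they are given as a description. Between the control sexes Rbpj differed by -0.33 ± 0.13 (limma adjusted p = 0.44). Psenen, a subunit of the protease that frees the Notch inner part, differed by 0.42 ± 0.16 (limma adjusted p = 0.44).

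**Figure D5:**
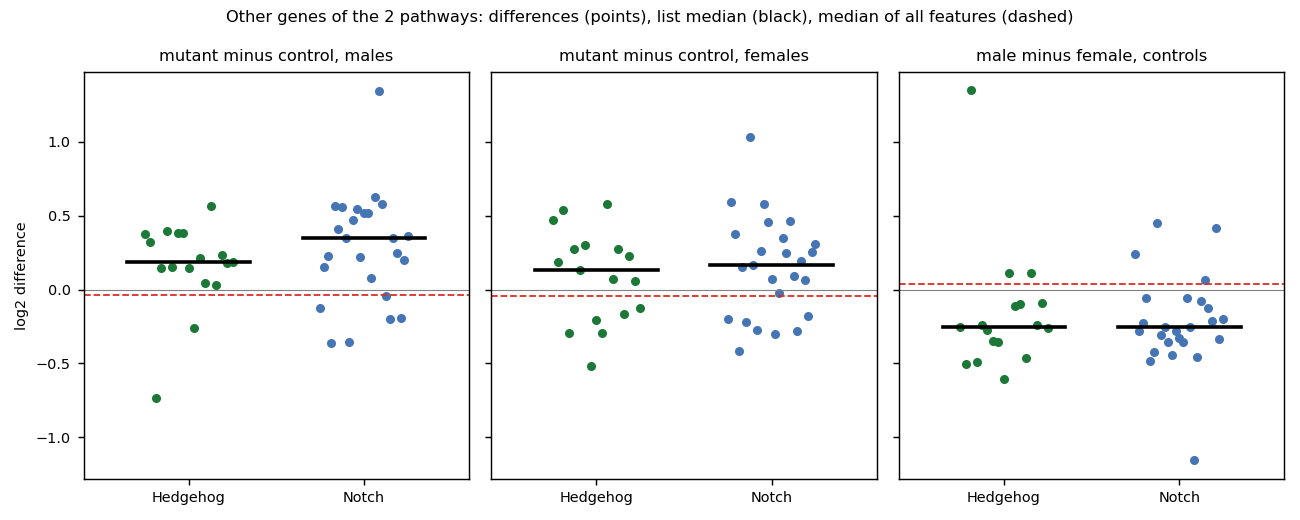
Log2 differences of the tested other genes of the Hedgehog pathway (17) and the Notch pathway (25) in 3 comparisons, 1 point per gene, with the median of the list as a black line and the median of all features as a dashed line. List medians in males are 0.19 and 0.35 and in the control sex comparison -0.25 each. Genes that were dim in control males can tilt these medians, which are a description. Dhh is the highest Hedgehog point between control males and females, at 1.35, and the lowest in mutant males, at -0.74.

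In such bulk samples fewer cells of a type and less RNA per cell cannot be told apart, and markers of other cells were therefore read beside the pathway genes. Interstitial progenitor genes, led in level by Col3a1 and Nr2f2, were higher in mutants for 8 of 10 in males (median 0.27) and 9 of 10 in females (median 0.29). The medians of the Hedgehog and Notch genes were 0.29 and 0.25. Counts and medians of these marker lists, here and in the next paragraph, come from the fit of group means only. Some tested genes were well above background on only part of the arrays, such as Tek, Pou5f1 and Nanos3 on 8 each. Such genes can be tested through a brighter group. That can tilt the counts and medians, so they are given as a description. The lean of the Hedgehog and Notch genes changed with the processing, and the marker lists are given without those other settings. A summed level adds the brightness of the probes of a list, so the brightest probes weigh most. In the mesonephric list below, Krt8 had a mean level of 3.63 and Cdh16 of 1.48, and the other genes were dimmer. The summed log2 level of the interstitial progenitor genes ran from 6.11 to 6.47 in control males and 6.50 to 6.82 in mutant males. It ran from 6.32 to 6.76 in control females and 6.77 to 6.87 in mutant females. Gonadal somatic genes, led by Wt1 and Lhx9, were higher in 7 of 8 in each sex (medians 0.19 and 0.25). Mesonephric epithelium genes, led by Krt8 and Cdh16, were higher in mutant males for 9 of 9 tested (median 1.00), with a summed level of 3.82 to 3.96 in control males and 4.21 to 4.79 in mutant males, and Ret was well above background on 0 arrays. In females 3 of 9 were higher (median -0.09; 4.08 to 4.28 in controls and 3.70 to 4.15 in mutants).

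Endothelial genes, led by Egfl7 and Emcn, were higher for 9 of 10 in mutant males (median 0.48; summed level 3.58 to 4.03 in controls and 3.55 to 4.33 in mutants). In mutant females they were higher for 1 of 10 (median -0.39; 3.64 to 4.06 and 3.33 to 4.05). Hey1, Jag1 and several other Notch genes are also expressed in endothelium. Erythroid genes, led by Hbb-y and Hbb-bh1, differed most between single embryos, with a summed level from 4.63 to 9.79 over the 12 arrays, and 7 of 7 read lower in the control males than in females of that genotype (median -1.01). Macrophage and leukocyte genes, led by Fcer1g and Tyrobp, were higher for 5 of 5 in mutant males (median 0.54), and germ cell genes, led by Dnd1 and Dppa3, for 5 of 6 (median 0.19). In mutant females these were higher for 1 of 5 (median -0.42) and 4 of 6 (median 0.80). Limma called 0 genes of these 7 lists in each comparison. At an unadjusted p under 0.05 in males there were 5 of 9 mesonephric, 3 of 10 interstitial, 1 of 7 erythroid and 1 of 6 germ cell genes and 0 of the gonadal, endothelial and macrophage genes, beside 11.9% of all features. The part of these cells in the differences of the Hedgehog and Notch genes was not tested.

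Genes of fetal Leydig cells, which Hedgehog signalling promotes in the testis, were led in level by Cyp17a1 and Scarb1. Of 5 tested, 2 were higher and 3 lower in mutant males (median -0.29), and 1 was higher and 4 lower in mutant females (median -0.31). Star, which brings cholesterol into the mitochondria for steroid synthesis, fell by 0.59 ± 0.11 averaged over the sexes (limma adjusted p = 0.022). This call was lost under 3 other settings and without any 1 of 7 single arrays, which were control female 2, the 3 mutant females, control male 2 and mutant males 1 and 3, with adjusted p up to 0.085. The summed level of the list ran from 2.91 to 3.37 over all groups, and Lhcgr was well above background on 0 arrays. Its mean summed level was 3.26 in control females and 3.15 in control males, so the list did not read higher in control males.

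The genes nearest in pattern to the targets of the pathways were sought by the mean absolute difference of mean-centred log2 levels over the 12 arrays, among genes well above background on all of them. For Gli1 they were Vamp2, Fbxl7 and Fgfr3, at 0.15, 0.16 and 0.17, beside a median of 0.44 over 12039 genes. For Hes1 they were Scrn2, Gemin4 and Ptger4, at 0.12, 0.13 and 0.13, beside a median of 0.27. For Hey1 they were Rfwd3, Yars2 and Celf1, at 0.05, 0.07 and 0.07, beside 0.22. For Hhip, which lay mostly at background, they were Tbxas1, Tmem40 and Pdlim3, at 0.48, 0.49 and 0.51, beside 0.84. These values include the brightness that each array gives to all its probes.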

How the data were processed

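RNA of 12 single embryos was amplified linearly, labelled with Cy3 and hybridised to 1-colour Agilent arrays, per the labels' protocols. Spots were quantified with Agilent Feature Extraction, per the submitters' processing notes, in version 10.5.1.1 on array design 014868 and assembly mm9, per the file headers. The deposited values are an intensity, the processed signal, background-subtracted by the authors' software and not scaled between arrays, with the median signal and local background as further intensities. A log2 value per probe was computed here, not by the authors: the processed signal was put on the log2 scale and the 75th percentile of each array, taken over probe means, was subtracted.

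Control spots and outlier spots were left out (45018 spots, 43379 not controls, 41174 probes). Probes were named by accession through RefSeq, 27479 of them to 18749 symbols. Tests needed a probe well above background on every array of 1 group or more, and a gene was represented by its brightest probe over the 12 arrays, which left 19178 features. This filter can pass a dim gene through its brighter group. The 4 group means were fitted together in limma 3.58.1 (R 4.3.3), with Benjamini-Hochberg adjustment over all features at 0.05. The fit was also run on simulated arrays with independent noise. These had no slide or brightness effects, so that run says nothing about such effects.

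The genes and lists were chosen with earlier results of these data known. Named genes were Kdm3a, the 10 pathway genes with every probe, all ligands, and of each pathway list the 2 smallest p-values in 3 comparisons. Of other lists they were the 2 genes with the brightest probes and any call, and of 4 targets the 3 genes most alike in pattern. Normexp (offset 50) used the median signal, and local backgrounds marked as outliers were replaced by the median of the array. Other alternatives were quantile or median scaling, other filters on dim probes, every probe separately, only the groups compared, the slide or replicate number as a block, brightness as a covariate, and each array left out. Figures were drawn with matplotlib 3.10.9.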

Additional observations from a re-analysis of the deposited data

Results flagged for a closer look

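Hhip stood out because all mutant embryos of each sex lay on opposite sides of the mean of their controls. As a description of dim signals, the mutant mean was 0.85 higher on the log2 scale in males, and in females the difference was -1.35. The difference between the sexes was not tested. None of the 6 male arrays was well above background for Hhip, so the male value compares background signals, and in females 2 of 3 control arrays and 1 of 3 mutant arrays were above it. The second Hhip probe, at background on every array, read lower in mutants of both sexes. Its means were -6.67 in mutant and -6.40 in control males, and -7.22 in mutant and -6.82 in control females.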

How the results depend on the processing

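Depth does not apply to arrays, and signal over background limits Hhip, Gli1 and Gli2. A change of sign was counted where either value exceeded its SE. Leaving out single arrays changed 0 of 540 signs of the Hedgehog and Notch genes and brought 4 over the threshold, all without control female 3 in the averaged effect, and the other settings changed 26 of 431 signs and brought 0 over it. The count of these genes called ranged from 0 to 4 for the averaged effect without single arrays and from 0 to 0 in the other 5 comparisons. The signs that changed under normexp were those of Gli1 (-0.11 in males, -0.10 in females, -0.11 averaged, 0.16 for sex in controls, 0.15 in mutants), Gli2 (-0.020 in males, 0.094 for sex in controls), Ptch1 (0.078 for sex in controls) and Hes1 (0.18 for sex in mutants). With the slide as a block they were Hey1 (0.027 in males, -0.053 for sex in controls), Smo (-0.11 in females), Notch2 (-0.13 in females, 0.35 for sex in mutants), Kif7 (-0.048 in females), Gli2 and Gli3 (0.11 and 0.081 for sex in mutants). With brightness as a covariate they were Gli1 (-0.14 averaged, 0.00014 for sex in controls, 0.051 in mutants), Gli2 (0.23 and 0.087 for sex), Gli3 (0.028 for sex in controls) and Notch2 (0.070 and 0.14 for sex). With every probe tested, another probe had the smallest p and the opposite sign for Notch2 (0.51 for sex in mutants) and Jag1 (0.78 for sex in mutants). Kif7, which is outside these genes and the count of 26, also changed sign in females. It differed by -0.048 with the slide as a block and by -0.60 in another probe. The causes were not tested, other than that another probe was read where every probe was tested.

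Counts of all features called moved by over 1.5 times as follows. In males 92 became 34 without the filter on dim probes, 22 with only the groups compared, 48 with the slide as a block and 54 with brightness as a covariate, and 27 to 90 without single arrays. In females 68 became 41 under median scaling, 33 with only the groups compared, 13 with the slide block and 42 with brightness, and 30 to 124 without single arrays. For the averaged effect 214 became 57 with the slide block and 108 with brightness, and 125 to 4644 without single arrays. For sex in controls 35 became 10 with only the groups compared and 13 with the slide block, and 19 to 41 without single arrays. For sex in mutants 27 became 17 without the filter, 11 with only features above background on all arrays, 10 with only the groups compared, 7 with the slide block and 10 with brightness, and 10 to 37 without single arrays. The difference of the mutant effects went from 0 to 7 with the slide block and to 1 with brightness, and 0 to 0 without single arrays. Fits of only the groups compared give no value for it or for the averaged effect.

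Median scaling moved the median of all features by 0.11 in females, and dropping the filter moved it by -0.10 in the averaged effect, -0.11 in females, 0.11 for sex in controls and 0.13 in mutants. Group levels moved by over 1 SD for 1 of 40 under quantile normalization, 40 of 40 under median scaling, which sets another zero, and 34 of 40 under normexp. Deviations from the group means correlated at -0.53 to 0.43 between embryos with the same replicate number. Pairs with different numbers were not set beside them, so these values cannot decide whether the numbers mark a pairing. With the replicate block 0 of the 9 genes were called in each comparison, and the features called for sex came to 23 in controls and 16 in mutants.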
